A study of Homo sapiens with 12 samples.

Results

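The collagen genes were the genes on the array whose symbol has the form COL, a type number, the letter A and a chain number. They numbered 43 of the 19774 genes named by the probe annotation, and each was read from its brightest probe set, the one with the highest mean over the 12 arrays. The 12 Affymetrix U133 Plus arrays measured total RNA of HUTU-80, MDST8 and NCI-H716, 3 established cell lines that the labels call colorectal cancer and describe as carrying methylated miR-200 loci, although HUTU-80 is catalogued as a duodenal line. Each line had a control array, an array with the lentiviral construct miR-200ba429, and 1 array with miR-200c141 or, in HUTU-80, 2, whose titles end in 1:3 and 1:5. MDST8 and NCI-H716 also had an array with both clusters, made by giving part of the miR-200ba429 cells the miR-200c141 virus 24 hours after sorting. GFP sorting followed transduction by 48 hours, and extraction was on day 7. The labels do not say what the control cells received, what the ratios stand for or whether each array had its own culture, and the p-values measure only the spread between these samples, which may be technical.

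Collagens are secreted or membrane-anchored proteins of the extracellular matrix, built from 3 chains wound into a triple helix. Fibrillar types such as I, III and V bear tension in tissue, type IV forms the sheet under epithelia, and type VI makes beaded filaments around cells. In the gut most collagen is made by fibroblasts of the stroma. Cancer cells that have lost epithelial features can also express collagen genes. The miR-200 family is known for repressing ZEB1 and ZEB2, repressors of epithelial genes.

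The 5 mature microRNAs carried by the constructs are shown because each cluster holds both seed versions of the family. Capitals mark the seed, bases 2 to 8. The sequences are from RefSeq with GRCh38.p14 positions. The first pair lies on chromosome 12, plus strand (chr12:6963742-6963764 and chr12:6964155-6964176), and belongs to miR-200c141. The other three lie on chromosome 1, plus strand (chr1:1167160-1167181, chr1:1167916-1167937 and chr1:1169055-1169076), and belong to miR-200ba429.
hsa-miR-200c-3p: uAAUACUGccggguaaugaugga
hsa-miR-141-3p: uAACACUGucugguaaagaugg
hsa-miR-200b-3p: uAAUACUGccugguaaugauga
hsa-miR-200a-3p: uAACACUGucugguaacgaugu
hsa-miR-429: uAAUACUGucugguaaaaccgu
The seed AAUACUG is shared by miR-200c, miR-200b and miR-429, and AACACUG by miR-141 and miR-200a.

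Values are log2 intensities, and the highest value of 23 nonspecific control probe sets, 5.429, served as the background level. Differences that start from or end at a value at or below it have a size limited by background, and a stated lower bound puts such values at the lowest signal above that level. Across genes, the lowest correlation within a line was 0.978 and the highest between lines 0.885. The 6 endothelial markers were below background on every array. Of 6 immune markers only LYZ, a lysozyme that some gut epithelial cells also make, was above it, and only in NCI-H716. Of 10 fibroblast markers, NCI-H716 had 2 to 3 above background, MDST8 3 to 4 and HUTU-80 4. LUM, a small proteoglycan of collagen fibrils, was above it on every array. Of 12 epithelial markers, NCI-H716 had 10 to 12 above background, MDST8 1 to 2 and HUTU-80 1 to 4. The intestinal genes CDX2 and VIL1 were below it on every HUTU-80 and MDST8 array.

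The collagen repertoire differed by line. Of the 43 genes, 22 (51.2%) were above background on at least 1 array, against 59.2% of all genes. The other 21 were below it on every array, and 0 were above it on every array. In the controls, 13 were above background in MDST8, 8 in HUTU-80 and 7 in NCI-H716. Over all arrays, 6 were seen in MDST8 alone (COL10A1, COL13A1, COL4A1, COL5A1, COL6A2 and COL8A1), 4 in NCI-H716 alone (COL14A1, COL24A1, COL28A1 and COL9A3) and 2 in HUTU-80 alone (COL1A2 and COL26A1). COL1A1, COL27A1 and COL6A1 exceeded background in all 3 lines. COL24A1 is counted for NCI-H716 although its control there, at 5.01, was below background. The counts by control and by line have no count over all genes beside them and do not by themselves set collagens apart. In bulk RNA, fewer cells expressing a gene and less RNA per cell cannot be told apart.

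**Figure D1:**
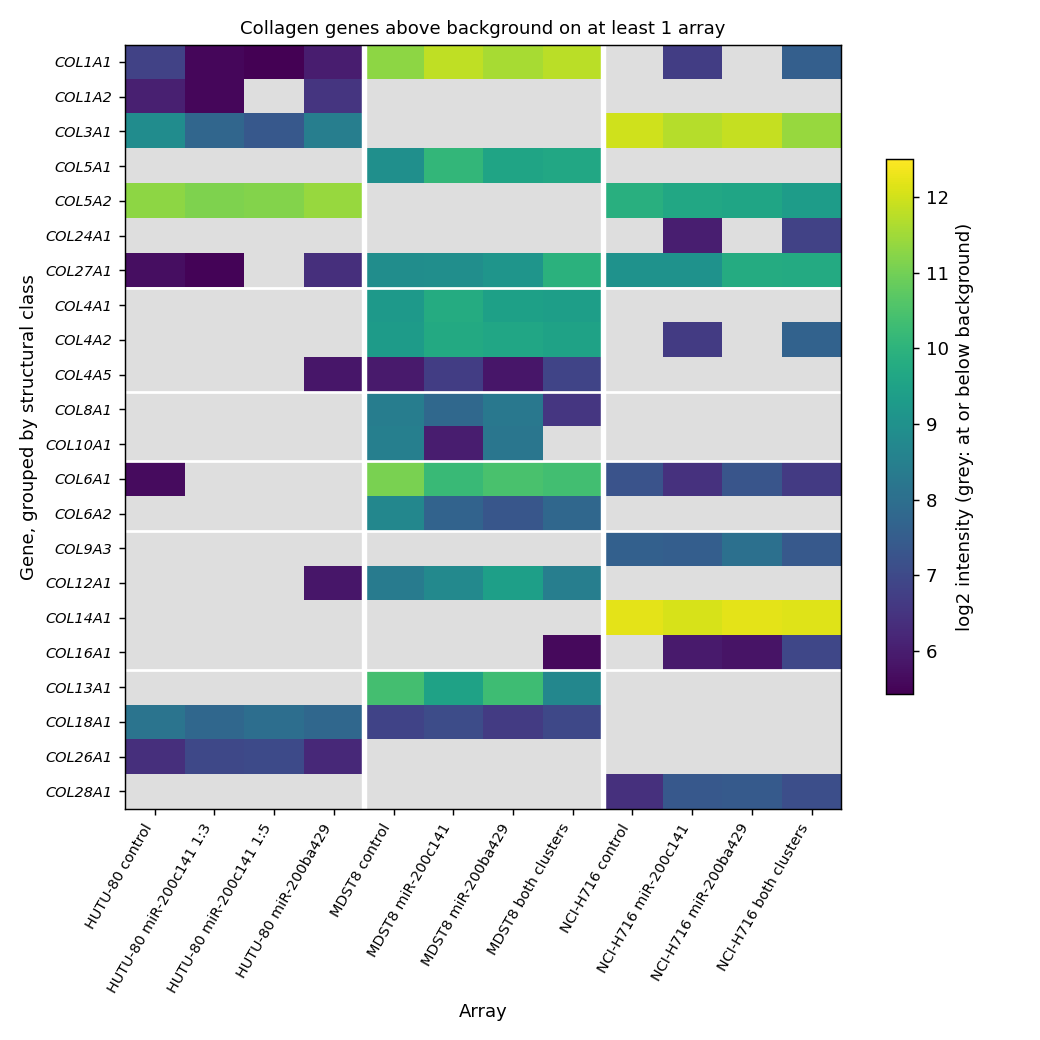
Log2 intensity (colour) of the 22 collagen genes above background on at least 1 of the 12 arrays, with genes in rows by structural class and arrays in columns by line. Grey marks values at or below the background level of 5.429, and MDST8 has 14 genes coloured on any array against 11 in NCI-H716 and 10 in HUTU-80.

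The test between the 3 lines called 31 of the 43 collagens (limma, Benjamini-Hochberg adjusted p under 0.05 over all genes), beside 62.1% of all genes. A share of this size in all genes means that the count by itself does not set collagens apart. All 22 collagens above background on at least 1 array were called, beside 89.4% of 11710 such genes. The other collagens called were below background on every array. The distance between the highest and lowest line mean had a median of 2.14 over the 43 genes and 0.65 over all genes. It exceeded 4 log2 units for 14 collagens (32.6%) and for 6.49% of all genes, a limit chosen after the values were seen. Between pairs of lines, 24 collagens differed for HUTU-80 against MDST8 (43.3% of all genes), 20 for HUTU-80 against NCI-H716 (45.6%) and 24 for MDST8 against NCI-H716 (51.7%). Among the 22 above background on at least 1 array, 18, 16 and 19 differed in that order, beside 64.1%, 67.7% and 75% of such genes. Arrays of a line carry different constructs, and the group was a term in these fits.

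Among the fibrillar collagens, 7 of 11 were above background somewhere. COL5A1 and COL5A2 encode partner chains of type V collagen, which sets the diameter of type I fibrils. COL5A1 stood at 9.58 ± 0.48 in MDST8 (SD, n = 4 arrays), at 3.28 ± 0.05 in HUTU-80 and at 3.02 ± 0.35 in NCI-H716, a difference of at least 17.8-fold from either. COL5A2 was the reverse, with 3.59 ± 0.38 in MDST8, 9.62 ± 0.23 in NCI-H716 and 11.26 ± 0.12 in HUTU-80, at least 56.8-fold higher in HUTU-80 than in MDST8. HUTU-80 exceeded NCI-H716 in COL5A2 by 1.71 ± 0.21 (SE, limma adjusted p = 3.77e-05). The partner chains were thus above background on 4 and 8 arrays, with 0 arrays in common.

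COL3A1, the chain of type III collagen, stood at 11.75 ± 0.25 in NCI-H716, 8.11 ± 0.67 in HUTU-80 and 3.03 ± 0.31 in MDST8 (SD, n = 4 arrays each). Each neighbouring step in that order passed the test, with 3.45 ± 0.26 (SE, limma adjusted p = 5.27e-07) and 5.26 ± 0.26 (adjusted p = 1.98e-08), the latter limited by background. COL3A1 and COL5A2 are next to each other on chromosome 2 and were above background on the same 8 arrays and below it on the same 4. Of 7 such neighbouring collagen pairs, COL4A1 with COL4A2 shared 4 arrays above background, with COL4A2 alone on 2. COL6A1 with COL6A2 shared 4, with COL6A1 alone on 5. COL4A6 with COL4A5 shared 0, with COL4A5 alone on 5, and the other three pairs were below background throughout. The correlation of levels over the 12 arrays was 0.80 for COL3A1 and COL5A2, a description over arrays that share 3 lines.

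COL1A1 and COL1A2 encode the chains of type I collagen, the main collagen of bone and stroma. COL1A1 stood at 11.31 to 11.83 in MDST8, 5.44 to 6.82 in HUTU-80 and 3.19 to 7.57 in NCI-H716. HUTU-80 and NCI-H716 overlapped and did not differ beyond their spread (fitted difference of NCI-H716 minus HUTU-80 of −0.79 ± 0.69, SE, limma adjusted p = 0.405). COL1A2 stood at 5.23 to 6.53 in HUTU-80 and below background on all MDST8 and NCI-H716 arrays. COL1A1 was above background without COL1A2 on 7 arrays, including all 4 of MDST8, and the pair was above it together on 3, all of HUTU-80.

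**Figure D2:**
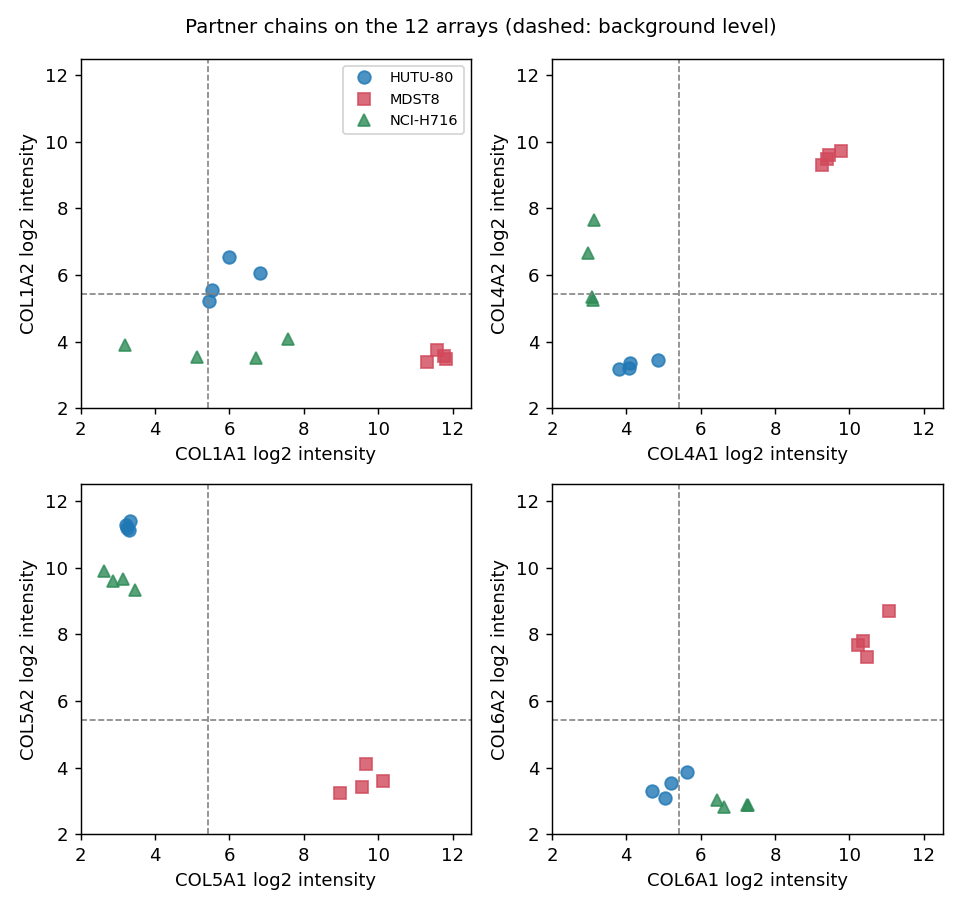
Log2 intensity of partner chains on the 12 arrays, 1 point per array, with the line shown by colour and shape and the background level of 5.429 dashed. COL5A1 and COL5A2 are never both above background, whereas COL4A1 with COL4A2 and COL6A1 with COL6A2 are so on the 4 MDST8 arrays.

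COL27A1, a fibrillar chain known from cartilage, stood at 9.39 ± 0.42 in NCI-H716, 9.22 ± 0.50 in MDST8 and 5.62 ± 0.60 in HUTU-80 (SD, n = 4 arrays each). NCI-H716 and MDST8 did not differ beyond their spread (0.18 ± 0.16, limma adjusted p = 0.383), while HUTU-80 was lower than MDST8 by 3.28 ± 0.17 (adjusted p = 3.52e-08). COL24A1, a fibrillar chain of developing bone, was above background on 2 arrays, both of NCI-H716. The remaining fibrillar genes, COL2A1, COL5A3, COL11A1 and COL11A2, were below background on every array.

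Among the basement membrane chains, 3 of 6 were above background. COL4A1 and COL4A2 encode the ubiquitous type IV chains and are transcribed away from each other from a shared stretch. COL4A1 stood at 9.47 ± 0.22 in MDST8 and below background elsewhere, and COL4A2 at 9.53 ± 0.18 in MDST8, 6.22 ± 1.15 in NCI-H716 and 3.30 ± 0.14 in HUTU-80 (SD, n = 4 arrays each). In NCI-H716, COL4A2 ran from 5.25 to 7.66 while COL4A1 stayed at 2.97 to 3.12. The 126 bases between the annotated starts, chr13:110307158-110307283 on the plus strand of GRCh38.p14 from RefSeq, are printed because the pair was above background together in MDST8 and apart in NCI-H716. Capitals mark a CCAAT box (letters CCAAT, bases 22 to 26) and a GC box (letters GGGCGG, bases 62 to 67).
COL4A1/COL4A2 stretch: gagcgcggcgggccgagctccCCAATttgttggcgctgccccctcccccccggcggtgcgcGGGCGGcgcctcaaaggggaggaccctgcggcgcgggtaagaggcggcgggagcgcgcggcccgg
The letters CACCTG, the E-box that ZEB proteins bind, were not found on either strand of this window. Windows of the same length before the start of a gene held CACCTG in 8.74% of 35116 cases, CCAAT in 21.1% and GGGCGG in 34.6%, searched on both strands. The stretch is 80.2% G and C and holds 20 CpG. Over 250 bases before the start, 31 collagens had a RefSeq promoter in the table used. CACCTG was in 5 of them (16.1%, against 20.6% of 27305 genes), CCAAT in 10 (32.3% against 37.0%) and GGGCGG in 21 (67.7% against 46.2%). These shares are descriptions of letters.

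COL4A5, a chain of kidney basement membranes, stood at 6.35 ± 0.52 in MDST8, 5.15 ± 0.53 in HUTU-80 and 3.03 ± 0.08 in NCI-H716 (SD, n = 4 arrays each), and MDST8 exceeded HUTU-80 by 1.05 ± 0.29 (SE, limma adjusted p = 0.0114). The short-chain network genes COL10A1, the hypertrophic cartilage collagen, and COL8A1, a collagen of vessel walls and corneal membranes, were above background in MDST8 alone. COL8A1 stood there at 7.77 ± 0.84, at least 5.05-fold above either other line. COL10A1 varied widely within MDST8, as described with the constructs.

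The type VI genes COL6A1 and COL6A2 are neighbours on chromosome 21. COL6A1 stood at 10.53 ± 0.38 in MDST8, 6.90 ± 0.43 in NCI-H716 and 5.14 ± 0.40 in HUTU-80 (SD, n = 4 arrays each), and both steps passed the test, with 3.63 ± 0.13 (SE, limma adjusted p = 8.89e-10) and 1.74 ± 0.14 (adjusted p = 1.24e-06). COL6A2 stood at 7.87 ± 0.59 in MDST8 and below background in the other lines. COL6A3, which encodes the long chain of the classical type VI trimer, was below background on every array. In NCI-H716, COL6A1 was therefore the only type VI gene above background.

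Of the fibril-associated collagens, 4 of 10 were above background. COL14A1, which binds decorin on fibrils, stood at 12.06 to 12.22 in NCI-H716 and at 2.78 to 3.44 elsewhere, at least 106-fold higher. COL9A3, a chain of cartilage type IX collagen, stood at 7.64 ± 0.28 in NCI-H716 without COL9A1 or COL9A2, both below background on every array. COL12A1, a collagen of tendons and tumour stroma, stood at 8.74 ± 0.48 in MDST8, 4.52 ± 0.91 in HUTU-80 and 2.87 ± 0.10 in NCI-H716 (SD, n = 4 arrays each). COL16A1 lay close to background, from 5.40 to 6.94 in NCI-H716 and at most 5.60 in MDST8.

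The transmembrane collagen COL13A1 stood at 9.72 ± 0.79 in MDST8, at least 19.6-fold above either other line. COL18A1, the precursor of endostatin, stood at 7.93 ± 0.17 in HUTU-80, while MDST8 had 6.89 ± 0.17 and NCI-H716 3.96 ± 0.39 (SD, n = 4 arrays each), and HUTU-80 exceeded MDST8 by 0.99 ± 0.23 (SE, limma adjusted p = 0.00359). COL26A1 stood at 6.65 ± 0.40 in HUTU-80 alone and COL28A1 at 7.08 ± 0.47 in NCI-H716 alone. The anchoring fibril gene COL7A1 was below background on every array.

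The comparisons with control asked what the constructs changed within the lines. With miR-200c141, with miR-200ba429 and with any construct, 0 of 43 collagens passed (limma, adjusted p under 0.05), beside 0% of all genes. At an unadjusted p under 0.05 there were 3, 5 and 5 collagens, beside 6.58%, 6.14% and 9.36% of all genes. These included COL6A5 each time, COL25A1 with miR-200ba429 and COL4A6 with any construct, all below background on every array. With both clusters, 2 of 43 passed, COL27A1 higher and COL6A1 lower, beside 6.14% of all genes (2.33% higher and 3.81% lower). At an unadjusted p under 0.05 there were 10, beside 22.0% of all genes. The 10 included COL4A6, below background on every array. With both clusters the share of collagens called was thus close to that of all genes at either threshold. The median fitted change with both clusters was 0.061 over the 43 genes and 0 over all genes, with 25 positive and 18 negative. These comparisons share the same 3 control arrays, so a like sign in several of them is not independent. The direct comparison of miR-200c141 with miR-200ba429 called 0 collagens, beside 0% of all genes, and 4 at an unadjusted p under 0.05 (3.57% of all genes). Among these 4, COL22A1 and COL25A1 were below background on every array.

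**Figure D3:**
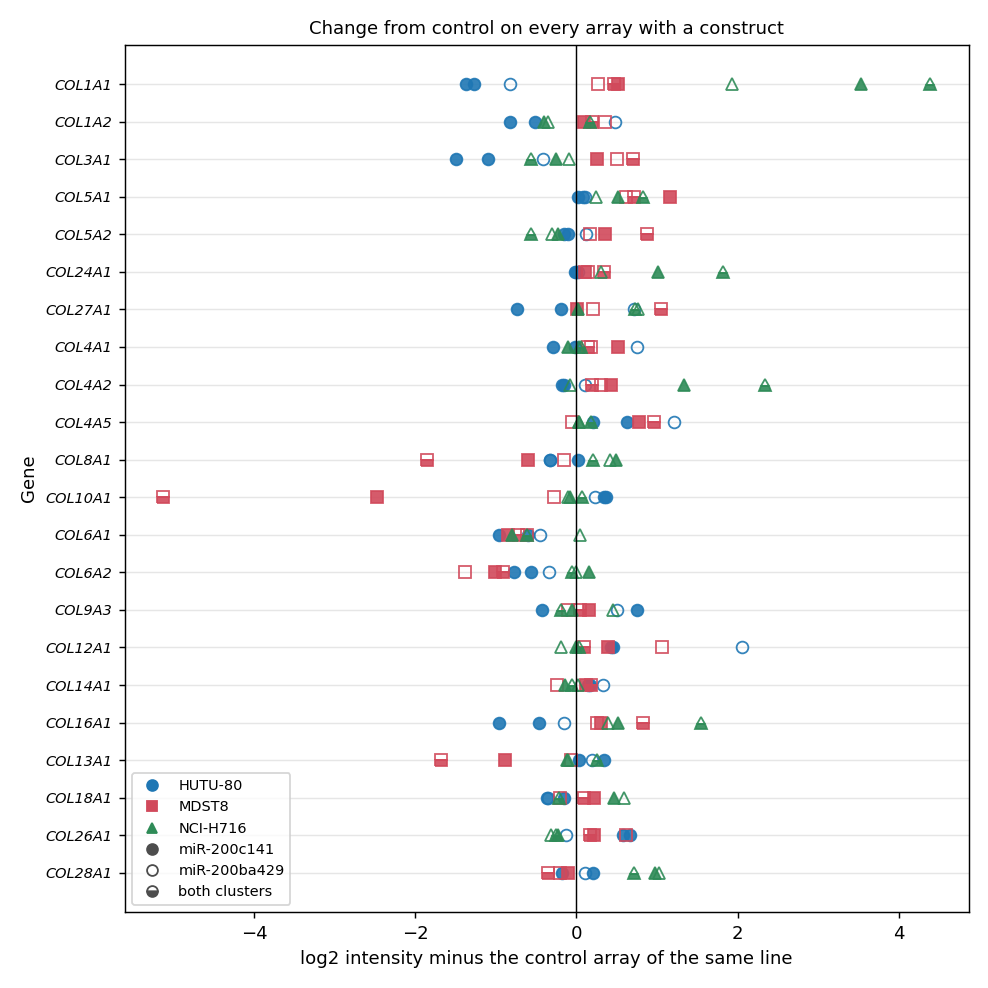
Difference in log2 intensity from the control array of the same line on each of the 9 arrays with a construct, for the 22 collagens above background on at least 1 array. Line is shown by colour and shape and construct by fill, and the farthest points are COL10A1 in MDST8 with both clusters (−5.13) and COL1A1 in NCI-H716 with both clusters (4.39).

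COL27A1 stood in MDST8 at 8.90 in the control, 8.91 with miR-200c141, 9.11 with miR-200ba429 and 9.94 with both clusters. In NCI-H716 it stood at 9.02, 9.04, 9.77 and 9.75 in the same order. In HUTU-80 it stood at 5.68 in the control, 5.49 and 4.93 on the miR-200c141 arrays and 6.38 with miR-200ba429. The array with both clusters was above the control in both lines, and in NCI-H716 the miR-200ba429 array was as high. COL27A1 rose by 0.86 ± 0.21 with both clusters (SE, 2 samples against 3 controls, limma adjusted p = 0.036). With miR-200ba429 it stood at 0.56 ± 0.18 (adjusted p = 0.789) and with miR-200c141 at −0.14 ± 0.18 (adjusted p = 0.918), and the direct difference of the constructs was −0.70 ± 0.18 (adjusted p = 1). With the mean of all COL27A1 probe sets, some of them below background on every array, the change with both clusters was 0.47 (adjusted p = 0.126).

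COL6A1 stood in MDST8 at 11.07 in the control, 10.22 with miR-200c141, 10.47 with miR-200ba429 and 10.36 with both clusters. In NCI-H716 it stood at 7.24, 6.44, 7.28 and 6.63 in the same order. In HUTU-80 it stood at 5.64 in the control and below background on the other arrays, at 5.04, 4.69 and 5.19. The control was the highest array in MDST8 and HUTU-80, and 8 of 9 arrays with a construct lay below their control. COL6A1 fell by 0.68 ± 0.17 with both clusters (SE, 2 samples against 3 controls, limma adjusted p = 0.0426). It stood at −0.81 ± 0.15 with miR-200c141 (adjusted p = 0.242) and at −0.34 ± 0.15 with miR-200ba429 (adjusted p = 0.789). With the mean of all COL6A1 probe sets, most of them below background on every array, the change with both clusters was −0.20 (adjusted p = 0.398). Both calls are near the threshold and were lost in most of 22 alternative fits, in 15 for COL27A1, and in 16 for COL6A1 beside 1 with a changed sign.

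COL6A2 followed a like course in MDST8, with 8.70 in the control and 7.69, 7.32 and 7.79 with miR-200c141, miR-200ba429 and both clusters. Every construct array of MDST8 was lower than its control by 0.91 or more on this probe set. A second COL6A2 probe set read 5.36 in the control and 5.06, 4.95 and 5.74 in the same order, above background with both clusters only. The fitted change was −0.51 ± 0.27 with miR-200c141, −0.58 ± 0.27 with miR-200ba429 and −0.47 ± 0.31 with both clusters (SE, limma adjusted p of 0.775, 0.789 and 0.416), over lines of which 2 lack a signal above background. The 5 type VI genes had negative fitted changes in all 3 comparisons, but 3 of them were below background on every array.

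Some collagens had large differences from control in 1 line, none of which passed in the fit over lines. COL10A1 stood in MDST8 at 8.48 in the control, 8.20 with miR-200ba429, 6.00 with miR-200c141 and 3.35 with both clusters. The value with both clusters was below background, a level at least 8.31-fold below the control. A further COL10A1 probe set read 7.47, 7.33, 4.82 and 3.21 on the same arrays. In HUTU-80 and NCI-H716 the gene was below background throughout. The fitted change with both clusters was −2.30 ± 0.91 (SE, limma adjusted p = 0.169), −4.57 (adjusted p = 0.0161) without the NCI-H716 arrays and 0.20 (adjusted p = 0.708) without the MDST8 arrays. Without either line the group with both clusters is 1 array, whose spread is taken from the other groups, and the line left in decides the value of a gene above background in MDST8 alone. The test of a response that differs between lines gave COL10A1, COL8A1 and COL13A1 unadjusted p of 0.259, 0.276 and 0.309.

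On the probe sets used, COL8A1 and COL13A1 had the same order of arrays in MDST8. COL8A1 stood at 8.42 in the control, 8.26 with miR-200ba429, 7.82 with miR-200c141 and 6.56 with both clusters. COL13A1 stood at 10.38, 10.31, 9.49 and 8.70 in that order. On these probe sets the array with both clusters was the lowest of the line for both genes, and both remained above background. A second COL8A1 probe set, below background on these arrays, read 4.31, 5.03, 4.03 and 3.16 in that order. A second COL13A1 probe set read 6.73, 6.64, 5.89 and 5.29, and a further one 5.80, 6.31, 4.21 and 4.72. Their fitted changes with both clusters were −0.89 ± 0.37 and −0.60 ± 0.40 (SE, limma adjusted p of 0.19 and 0.425). With 1 array left in the group, they were −1.81 (adjusted p = 0.025) and −1.45 (adjusted p = 0.0589) without NCI-H716, and −0.02 (adjusted p = 0.973) and 0.36 (adjusted p = 0.401) without MDST8.

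**Figure D4:**
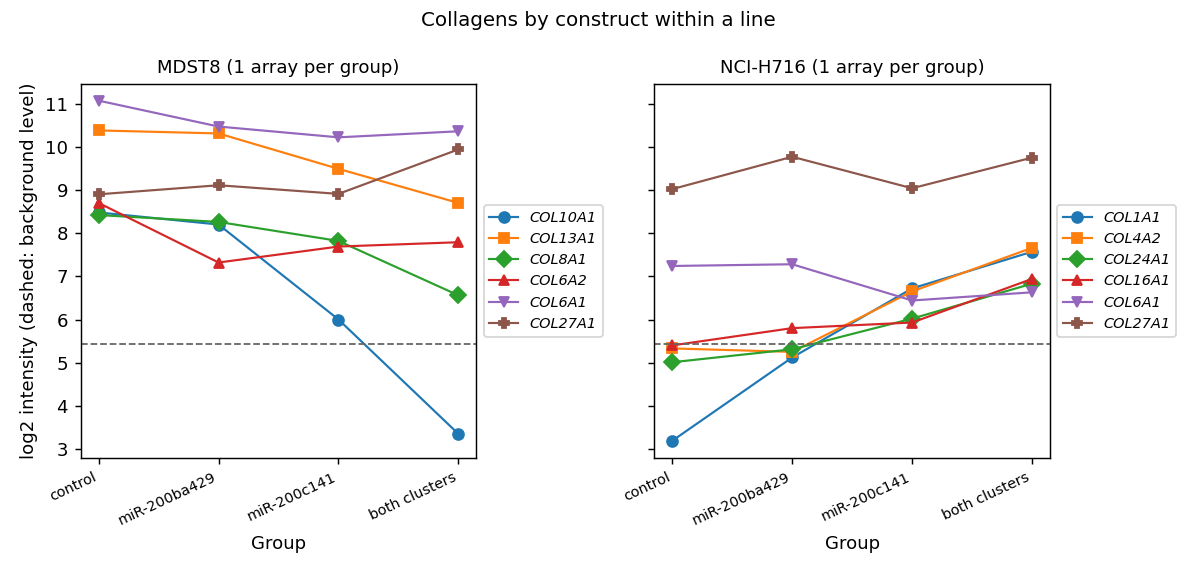
Log2 intensity of 6 collagens in MDST8 (left) and 6 in NCI-H716 (right) by construct, 1 array per group, with lines joining the points of a gene and the background level dashed. In MDST8 COL10A1 goes from 8.48 in the control to 3.35 with both clusters, and in NCI-H716 COL1A1 goes from 3.19 to 7.57.

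In NCI-H716 with both clusters, 6 of the 11 collagens above background there or in the control were higher than the control and 5 lower. All 4 that differed by more than 1 log2 unit were higher. Of 9801 genes taken in the same way, 446 were higher and 464 lower by more than 1. The 4 collagens, COL1A1, COL4A2, COL24A1 and COL16A1, were below background in the control. They were counted only through the array with both clusters, so they could only come out higher. COL1A1 stood at 3.19 in the control, 5.12 with miR-200ba429, 6.72 with miR-200c141 and 7.57 with both clusters. The control and the miR-200ba429 array were below background, which makes the array with both clusters at least 4.42-fold higher than the control. A second COL1A1 probe set gave 4.81, 4.85, 5.58 and 5.77 on the same arrays, the same order with smaller steps. In HUTU-80, COL1A1 stood at 6.82 in the control and lower on the others, at 5.54, 5.44 and 5.99, where the second probe set read 5.51, 5.54, 5.13 and 5.44. In MDST8, COL1A1 stood at 11.31 in the control and at 11.58 to 11.83 on the other three.

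The fitted change of COL1A1 with both clusters was 1.84 ± 0.82 (SE, limma adjusted p = 0.22). It was 3.12 without the MDST8 arrays (adjusted p = 0.136) and −0.03 without the NCI-H716 arrays (adjusted p = 0.987), each with 1 array left with both clusters. The test of whether the response to a construct differs between lines gave COL1A1 a p of 0.00379 (adjusted p = 0.545). That test called 0 collagens, beside 0.00506% of all genes, and at an unadjusted p under 0.05 it gave COL11A1, COL1A1 and COL28A1 (4.99% of all genes). COL11A1 was below background on every array.

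**Figure D5:**
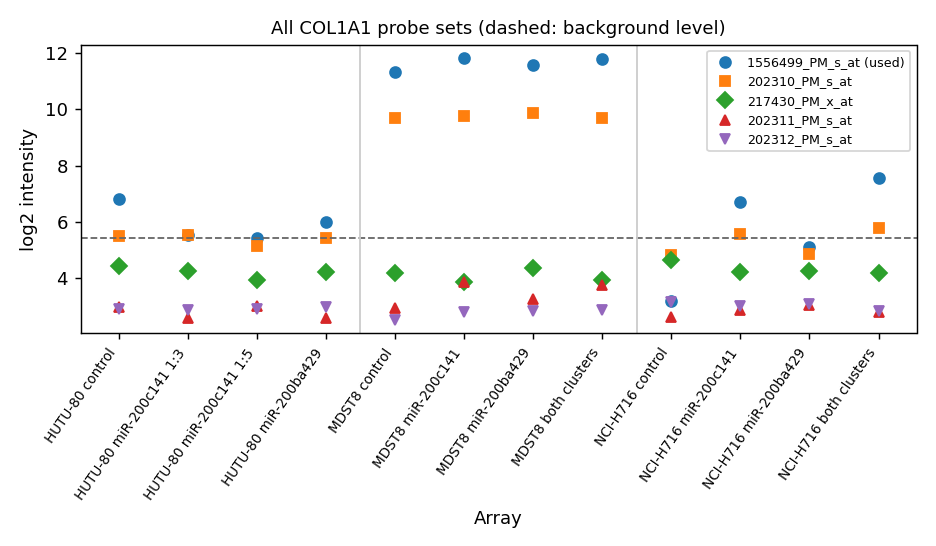
Log2 intensity of all COL1A1 probe sets on the 12 arrays, with the background level dashed and thin lines between the cell lines. The probe set used and the second brightest are both high in MDST8 and both highest with both clusters in NCI-H716, where the NCI-H716 control reads 3.19 and 4.81, and the others stay below background.

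COL4A2 stood in NCI-H716 at 5.33 in the control, 5.25 with miR-200ba429, 6.65 with miR-200c141 and 7.66 with both clusters. COL24A1 stood at 5.01, 5.31, 6.02 and 6.83, and COL16A1 at 5.40, 5.80, 5.93 and 6.94 in the same order. All 3 controls were below background, and the array with both clusters was the highest of the line for each gene. The lower bounds of that difference were 4.70-fold for COL4A2, 2.65-fold for COL24A1 and 2.85-fold for COL16A1. A second COL4A2 probe set, below background on these arrays, read 3.51, 3.57, 4.98 and 5.11.

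The fitted changes with both clusters were 1.15 ± 0.47 for COL4A2, 0.99 ± 0.31 for COL24A1 and 1.00 ± 0.30 for COL16A1 (SE, limma adjusted p of 0.179, 0.0888 and 0.0746). Without the MDST8 arrays they were 2.12, 1.60 and 1.24 (adjusted p of 0.0451, 0.0478 and 0.126), and without the NCI-H716 arrays 0.06, 0.30 and 0.58 (adjusted p of 0.942, 0.397 and 0.469), again with 1 array left in the group. The partner COL4A1 stayed below background on all 4 arrays. NCI-H716 also had lower COL3A1 with both clusters, at 11.42 against 11.98 in the control, and near-constant COL14A1, at 12.15 against 12.20.

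Single constructs gave a few further values. COL12A1 stood in HUTU-80 at 3.79 in the control, 4.22 and 4.24 on the miR-200c141 arrays and 5.85 with miR-200ba429, which alone was above background. In MDST8 it stood at 8.36 in the control, 8.75 with miR-200c141, 9.41 with miR-200ba429 and 8.45 with both clusters. The miR-200ba429 array was the highest of both lines, with a fitted change of 0.97 ± 0.35 (SE, limma adjusted p = 0.789). COL3A1 in HUTU-80 stood at 8.86 in the control, 7.77 and 7.37 with miR-200c141 and 8.45 with miR-200ba429, and its fitted change with miR-200c141 was −0.44 ± 0.27 (adjusted p = 0.797). COL5A1 stood in MDST8, the line where it was above background, at 10.12, 9.57 and 9.68 with a construct against 8.96, with a fitted change for any construct of 0.49 ± 0.19 (adjusted p = 0.507). COL4A5 had 0.47 ± 0.24 (adjusted p = 0.565).

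Other extreme changes, with a single construct or with any construct, did not pass either. For any construct, which includes both clusters, they included −0.83 ± 0.78 for COL10A1, 0.95 ± 0.63 for COL1A1 and 0.51 ± 0.38 for COL4A2 (SE, limma adjusted p of 0.733, 0.64 and 0.677). With miR-200c141 they included −0.74 ± 0.79 for COL10A1, −0.33 ± 0.24 for COL1A2 and 0.91 ± 0.71 for COL1A1 (adjusted p of 0.901, 0.84 and 0.855). COL5A1, COL4A2, COL4A5 and COL24A1 stood at 0.57 ± 0.23, 0.53 ± 0.41, 0.41 ± 0.30 and 0.37 ± 0.27 with that construct (adjusted p of 0.726, 0.85, 0.84 and 0.838). With miR-200ba429, COL10A1 stood at −0.05 ± 0.79 and COL8A1 at −0.02 ± 0.32 (adjusted p of 0.996 for both). Both genes had 0 arrays above background outside MDST8.

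Genes that act on collagen were counted from 5 lists. Of 34 measured genes of collagen folding, export and processing, 2 rose and 4 fell with both clusters (limma, adjusted p under 0.05), beside 2.33% and 3.81% of all genes, with a list median of 0.064 beside 0 over all genes. P4HA2, a subunit of the prolyl hydroxylase that stabilises the triple helix, stood at 8.67 in MDST8 control cells, 9.76 in those with both clusters, and 5.87 and 8.13 in the same NCI-H716 groups. It rose by 1.65 ± 0.27 (SE, adjusted p = 0.00756), and with the mean of its probe sets the change was 0.76 (adjusted p = 0.0553). CRTAP, part of the complex that hydroxylates a single proline of type I chains, stood at 11.86 and 10.77 in MDST8 and at 10.68 and 8.47 in NCI-H716. It fell by 1.62 ± 0.24 (adjusted p = 0.00454). P3H4, which takes part in lysine hydroxylation of collagen, rose by 0.57 ± 0.14 (adjusted p = 0.0378).

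PCOLCE, an enhancer of procollagen cleavage, fell by 1.01 ± 0.24 (adjusted p = 0.0348) and was below background on all HUTU-80 and NCI-H716 arrays. The other genes that fell were SEC23A, a coat protein of the vesicles that export procollagen, by 1.82 ± 0.22 (adjusted p = 0.00185), and the crosslinking enzyme LOX, by 2.77 ± 0.39, which dropped by 1.02 with the mean of its probe sets (adjusted p = 0.0188). LOX stood in MDST8 at 9.05 in the control and 6.49 with both clusters. In NCI-H716 it stood at 7.15 and 3.81, the latter below background, which limits the size there. The calls for P3H4 and PCOLCE were lost in 14 and 13 of 22 alternative fits. With only the 2 groups compared, P4HA2, CRTAP, LOX and MMP16 had adjusted p of 0.121, 0.0718, 0.0503 and 0.0503. Of 12 collagen receptors 0 passed with both clusters. The receptor kinases DDR1 and DDR2 stood at 0.51 ± 0.19 (adjusted p = 0.147) and −0.72 ± 0.23 (adjusted p = 0.0977), and MRC2, an endocytic receptor for collagen fragments, at −0.91 ± 0.31 (adjusted p = 0.108). Of 11 collagen-degrading enzymes MMP16 fell by 2.72 and the others did not pass. MMP16 stood in MDST8 at 8.23 in the control and 5.51 with both clusters, just above background. In NCI-H716 it stood at 6.82 and 4.04, the latter below background, which limits the size there. With the mean of its probe sets the change of MMP16 was −0.59 (adjusted p = 0.0677). Of 17 regulators of collagen transcription ZEB1 fell by 2.11 (by 1.31 with the mean of its probe sets, adjusted p = 0.0206) and the others did not pass, and of 14 proteoglycans and fibril partners 0 passed, each list count beside 6.14% of all genes called in either direction. Among the partners above background on at least 1 array the smallest p were those of the proteoglycans DCN (−1.05 ± 0.48) and KERA (0.43 ± 0.23) and of FN1, fibronectin (−0.40 ± 0.23), with adjusted p of 0.229, 0.3 and 0.342. KERA was below background on every MDST8 and NCI-H716 array, and HUTU-80 had no array with both clusters. DCN stood in MDST8 at 5.48 in the control, just above background, and at 3.04 with both clusters. In NCI-H716 both DCN and FN1 were below background on every array. With miR-200c141, miR-200ba429 or any construct, 0 genes of these 5 lists passed.

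The test of a response that differs between lines called 1 gene on these lists, ITGA2, the alpha chain of an integrin that binds type I collagen (limma, adjusted p = 0.0288). ITGA2 was the only gene called among all 19774 (0.00506%), and 1 gene does not by itself set these lists apart. In HUTU-80 ITGA2 stood at 4.87 in the control, below background, and at 7.16, 6.86 and 7.06 with a construct. In MDST8 it stood at 11.13 in the control and at 10.37 to 10.63 with a construct, and in NCI-H716 at 9.93 and at 9.96 to 10.23. The control was thus the lowest array in HUTU-80 and NCI-H716 and the highest in MDST8. The call was lost in 6 of 14 alternative fits (adjusted p 0.0101 to 0.174 over the 14). These were the mean of all probe sets (0.0805), no variance trend (0.0778) and the fits without 1 of 4 arrays: HUTU-80 miR-200c141 1:3 (0.0566), HUTU-80 miR-200ba429 (0.133), MDST8 miR-200c141 (0.114) or NCI-H716 miR-200c141 (0.174).

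Other measures also differed between these arrays. The log2 difference between 3′ and 5′ probe sets of ACTB was 2.019 in MDST8 with both clusters against 1.539 or less on the other arrays of the line. In NCI-H716 it was 2.626 against 2.405 or less. The HUTU-80 arrays ran from 2.102 to 2.388. The measure thus also differed by line, with every MDST8 array below every array of the other lines. The summed log2 level of the 10 fibroblast markers was 52.3 in MDST8 control cells, 47.1 with miR-200c141, 48.0 with miR-200ba429 and 47.1 with both clusters. In NCI-H716 it was 52.1, 48.9, 50.1 and 50.3 in that order. That of the 12 epithelial markers was 48.3, 50.0, 50.7 and 51.3 in MDST8 and 87.7, 108.3, 102.1 and 110.4 in NCI-H716. In MDST8, KRT18 stood at 9.89 in the control and 11.79 with both clusters, and KRT8 at 4.61 and 5.58. The other epithelial markers were below background on every MDST8 array. The marker sums thus differed from control with single constructs as well as with both clusters. Over the HUTU-80 arrays the fibroblast sum ran from 54.3 to 57 and the epithelial sum from 48.6 to 60.8. The part of the ACTB difference and of the marker sums in the collagen values was not tested.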

How the data were processed

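RNA was run on 12 Affymetrix U133 Plus arrays with the GeneTitan system, per the labels' protocols. The authors deposited log2 intensities, 1 per probe set. RMA is the tool named, per the submitters' processing notes, with no version given in the sources used here. RMA quantile normalizes, so differences in total RNA are removed. The values were used as deposited, from 2.048 to 13.771, with array medians of 3.595 to 3.662. Of 54715 probe sets, the 40920 that name 1 gene were kept and 864 that name several were left out. The 43 collagens had 111 probe sets, and 34 of the genes had several. Precision is limited by the number of arrays.

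Values of the miR-200c141 pair in HUTU-80 were averaged, which left 11 samples. They are not identical (SD of their log2 difference over genes 0.275). Fits used R 4.3.3 and limma 3.58.1, and tables were read by the data.table package, version 1.17.8. Models had line and group as terms, a trend of variance on level, and two-sided Benjamini-Hochberg adjustment over 19774 genes at 0.05. Samples of a line are paired through the line term. Residual degrees of freedom were 5, or 7 for any construct. On simulated data the fits were checked before use.

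Members, lists and tests were chosen with earlier results of these data known. Named collagens were those called and the 5 highest and 5 lowest changes among those above background in the groups compared, and for lines all above background. From other lists the called genes were named, or else 3 of smallest p above background. Alternatives were the mean of probe sets, a filter on dim genes, no variance trend, centring, no line term, separate HUTU-80 arrays, fewer groups, and leaving out lines or arrays.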

Additional observations from a re-analysis of the deposited data

Results flagged for a closer look

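Among 44 groups of changes from control (22 collagens, over the 9 arrays with a construct and over the 4 with miR-200c141), 5 held an array far from the others. Chance alone gives about 1 in 20 in groups of like samples, but these groups are not such: COL10A1 and COL8A1 were above background in MDST8 alone and COL24A1 and COL14A1 in NCI-H716 alone, so their other arrays are differences between values below background, and the count is not read against chance. Of the 4 miR-200c141 arrays 2 are of HUTU-80, so these groups are not of independent lines. COL10A1 in MDST8 with miR-200c141 stood at −2.48, far below the other miR-200c141 arrays. COL24A1 in NCI-H716 with miR-200c141 stood at 1.01, far above them. COL12A1 in NCI-H716 with miR-200c141 stood at −0.01 and COL14A1 in the same array at −0.14, each below the others. COL12A1 was below background on that array and its control. COL8A1 in MDST8 with both clusters stood at −1.85, the lowest of 9 arrays.

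The response of COL1A1 differed between lines at an unadjusted p of 0.0038 but not after adjustment over all genes (limma interaction, adjusted p = 0.545). Its mean change from control in HUTU-80 was lower than in MDST8 by a difference of −1.57, and HUTU-80 minus NCI-H716 gave −4.44. On the probe set used, all 3 HUTU-80 arrays with a construct lay below their control, and all 3 arrays of each other line above theirs. The second COL1A1 probe set read 5.51 in the HUTU-80 control and 5.54, 5.13 and 5.44 with a construct. In MDST8 and NCI-H716 it was above the control on every array with a construct. The COL1A1 control of NCI-H716 was below background.

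The response of ITGA2 differed between lines after adjustment over all genes (limma interaction, adjusted p = 0.0288). ITGA2 was the only gene called among all 19774 (0.00506%). Its mean change from control in HUTU-80 minus that in MDST8 was 2.77, and MDST8 minus NCI-H716 gave −0.76. That p is for the 3 lines together, and the pairs of lines were not tested singly. Its control in HUTU-80 was below background.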

How the results depend on the processing

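With both clusters, 2 collagens were called. The count was 0 with the mean of all probe sets, with no variance trend, without HUTU-80 and with only the 2 groups compared, 1 with arrays centred on genes above background, and 0 with no replicate block, that is without the cell line term that pairs samples of a line. All genes called numbered 1214 in the reported fit and 0 without that block. The fits without MDST8 or without NCI-H716 leave 1 array with both clusters, so only their changes are given. In that order COL27A1 stood at 0.64 and 1.05, and COL6A1 at −0.69 and −0.68. Other collagens moved further, such as COL4A2 at 2.12 and 0.06 and COL10A1 at 0.20 and −4.57. Over the fits that leave out 1 array the count ran from 0 to 4 collagens (383 to 1680 genes of all). COL6A1 changed sign without the block (0.51, adjusted p = 0.999). For the response between lines the count was 0 to 1 with 1 array left out, the 1 being COL1A1 without the NCI-H716 miR-200ba429 array, and it could not be fitted without a control array. The cause of these shifts was not tested, apart from the fewer samples that some settings hold. With miR-200c141, miR-200ba429 and any construct, 0 collagens were called in every alternative run. Counts between lines stayed within 1.5 times in all alternatives run, at 22 to 30 collagens over 5 settings for the 3 lines. Signals below background on 21 collagens, and 1 control array per line, limit what these arrays can show.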
